A study of Homo sapiens with 6 samples.

Results

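The ERK pathway feedback genes are 10 genes that growing cells switch on when the RAS/ERK kinase cascade is active, and most of them act to hold that cascade back. They were taken by symbol from the table of FPKM values (fragments per kilobase of gene length, relative to the depth of the library): DUSP4, DUSP5, DUSP6, SPRY2, SPRY4, SPRED1, SPRED2, ETV4, ETV5 and PHLDA1. All 10 of them were among the 57232 genes of the table, and 9 of 10 averaged 1 FPKM or more across the 6 libraries, the minimum for testing. The cells were IMR90, a line of human fetal lung fibroblasts, with 3 libraries from cells carrying an empty vector and 3 from cells given ARID1B cDNA. ARID1B is the DNA-binding subunit of a SWI/SNF chromatin remodeling complex, and the study asked how its ectopic expression leads to senescence, a lasting arrest of cell division that oncogenic RAS also brings about. Both groups were infected at passage 13, were kept in 0.8 ug of puromycin up to day 4 and gave RNA on day 6, so that the vector cells shared the infection and the drug. The study describes the libraries of a group as biological replicates.

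In the ERK cascade, RAS activates RAF, RAF activates MEK, and MEK activates the kinases ERK1 and ERK2, which phosphorylate transcription factors of the ETS family. Those factors induce the feedback genes: DUSP phosphatases remove the activating phosphates from ERK, while Sprouty and Spred proteins block the path from receptors through RAS to RAF. Because their mRNAs follow ERK activity, the genes are widely used as a readout of the pathway, and in RAS-induced senescence the same feedback is known to be engaged.

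The libraries held between 63386813 and 91924514 reads or fragments, as worked out from the smallest steps between FPKM values. ARID1B itself, whose introduced cDNA is counted with the gene, was at 1.88 ± 0.509 FPKM with the vector and at 27.3 ± 5.79 FPKM with ARID1B cDNA (SD, n = 3), a log2 change of 3.29 (SE 0.21, limma, adjusted p = 0.0255), and 3.14 without vector replicate 2 (adjusted p = 0.0131). Vector replicate 2 stood apart on the component that held 63.8% of the variance, at 48.5 against -20.0 to 3.63 for the other 5 libraries. Replicate 3 lay between replicates 1 and 2 in 97.9% (vector) and 95.5% (ARID1B) of the genes at least 2-fold apart between those replicates, at a median share of replicate 1 of 81.9% and 73.8%. Without regard to that fold, replicate 3 lay between the others in 9 of 9 tested feedback genes with the vector and in 8 of 9 with ARID1B, and in 85.0% and 69.2% of all genes tested. Standard errors and p-values treat the 3 libraries of a group as independent, and the changes of the feedback genes are given with and without vector replicate 2. If replicate 3 were a mixture of replicates 1 and 2, a group would hold fewer independent samples than 3, and the SDs, standard errors and p-values would be too small. That would weigh heavily on fits without vector replicate 2, which keep only replicates 1 and 3 of the vector. Whether replicate 3 is such a mixture was not tested further. All 10 fibroblast markers were detected, at summed levels of 1958 to 2661 FPKM with the vector and 1925 to 2693 FPKM with ARID1B. Epithelial markers summed to at most 1.49 FPKM in any library (ESRP1, KRT5 and SFTPC at 0), blood markers to at most 0.0597 FPKM (CD3E at 0) and endothelial markers to at most 3.66 FPKM (CDH5 at 0). Smooth muscle markers, 3 of 5 of which had a mean of at least 1 FPKM, summed to 74.4 to 129 FPKM with the vector and to 122 to 129 FPKM with ARID1B. The sum was low in vector replicates 1 and 3 and was mostly ACTG2. In replicates 1, 2 and 3 ACTG2 was at 62.4, 99.9 and 67.7 FPKM with the vector and at 109, 111 and 104 FPKM with ARID1B. The groups overlapped for MYH11, DES, CNN1 and SMTN, and DES was highest in vector replicate 1. The part of these markers in the results was not tested.

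To show the DNA that the ETS factors could meet, the 250 bases before the start of transcription were read from RefSeq (GRCh38.p14) for the 6 of 10 genes with an entry there, 9 entries in all. DUSP4, DUSP5, ETV4 and ETV5 had none. The ETS core was searched on both strands as CGGAAG and as AGGAAG, which share 5 letters but cannot match at the same place. CGGAAG was present upstream of DUSP6 and PHLDA1, and in 16.5% of the 35116 stretches of the same length over all genes. AGGAAG was present upstream of DUSP6, SPRY2, SPRED1 and SPRED2 (7 of 9 entries), and in 28.7% of all such stretches. The CRE palindrome TGACGTCA (1.65% of all stretches) and the AP-1 letters TGANTCA (6.57%) were found in 0 of 9 entries. A match of letters is not a bound site, and its absence concerns these letters and these windows only. The stretches of 4 genes are shown because they took different directions among the libraries described next: DUSP6 and SPRY4 were highest and SPRED1 lowest in vector replicate 2 within the vector group, and PHLDA1 was the tested member with the most negative change. Capitals mark CGGAAG or AGGAAG on either strand. They lie at 210 and 62 bases before the start in DUSP6, at 83 and 17 in SPRED1 and at 47 in PHLDA1. SPRY4 had neither form, and other forms of the ETS core were not searched or marked. The positions are chr12:89352502-89352751 (minus strand) for DUSP6, chr5:142324248-142324497 (minus) for SPRY4, chr15:38252586-38252835 (plus) for SPRED1 and chr12:76031777-76032026 (minus) for PHLDA1, and each sequence runs 5′ to 3′ along its gene.
DUSP6: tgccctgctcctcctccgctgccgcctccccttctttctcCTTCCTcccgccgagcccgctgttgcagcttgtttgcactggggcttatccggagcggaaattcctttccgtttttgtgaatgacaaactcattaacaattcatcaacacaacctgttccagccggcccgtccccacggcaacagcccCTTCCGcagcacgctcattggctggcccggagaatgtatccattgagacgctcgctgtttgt
SPRY4: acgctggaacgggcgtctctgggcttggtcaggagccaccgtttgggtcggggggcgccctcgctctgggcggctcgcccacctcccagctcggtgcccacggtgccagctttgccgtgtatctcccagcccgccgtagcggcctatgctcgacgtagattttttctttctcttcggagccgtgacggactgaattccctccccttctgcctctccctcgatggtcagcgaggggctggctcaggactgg
SPRED1: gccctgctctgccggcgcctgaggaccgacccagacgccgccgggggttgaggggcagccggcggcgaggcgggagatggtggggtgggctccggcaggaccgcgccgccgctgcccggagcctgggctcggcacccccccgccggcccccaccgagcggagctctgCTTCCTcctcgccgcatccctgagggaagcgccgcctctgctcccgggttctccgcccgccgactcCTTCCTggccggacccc
PHLDA1: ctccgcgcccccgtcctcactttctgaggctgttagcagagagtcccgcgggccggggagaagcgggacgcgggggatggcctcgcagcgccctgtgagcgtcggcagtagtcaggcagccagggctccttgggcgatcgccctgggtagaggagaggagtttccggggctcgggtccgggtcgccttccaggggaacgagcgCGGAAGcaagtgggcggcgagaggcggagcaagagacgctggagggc

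On the FPKM scale, which is per length of gene, the 10 genes covered a wide range of levels. In the vector cells the order of mean levels was PHLDA1, DUSP5, SPRY2, ETV5, SPRED1, SPRED2, DUSP6, SPRY4, ETV4 and DUSP4. The vector range of PHLDA1 lay wholly above that of DUSP5, and that of DUSP4 wholly below that of ETV4. The ranges of all other neighbors in this order overlapped, although SPRY4 was above ETV4 within each vector library. In the ARID1B cells the order was PHLDA1, DUSP5, SPRY2, SPRED1, ETV5, DUSP6, SPRED2, SPRY4, ETV4 and DUSP4. There PHLDA1 and DUSP5 overlapped, and so did the neighbors from SPRED1 to SPRED2, whereas the steps from DUSP5 to SPRY2, from SPRY2 to SPRED1, from SPRED2 to SPRY4, from SPRY4 to ETV4 and from ETV4 to DUSP4 were free of overlap. The spread within the vector group, as the highest library over the lowest, was larger than the fold between the group means for 8 of 10 genes, the exceptions being DUSP4 and PHLDA1. The exons of 4 of 10 genes (DUSP6, ETV4, ETV5 and PHLDA1) overlap those of another gene in GENCODE v29, and whether reads were counted by strand is not given in the sources used here.

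**Figure D1:**
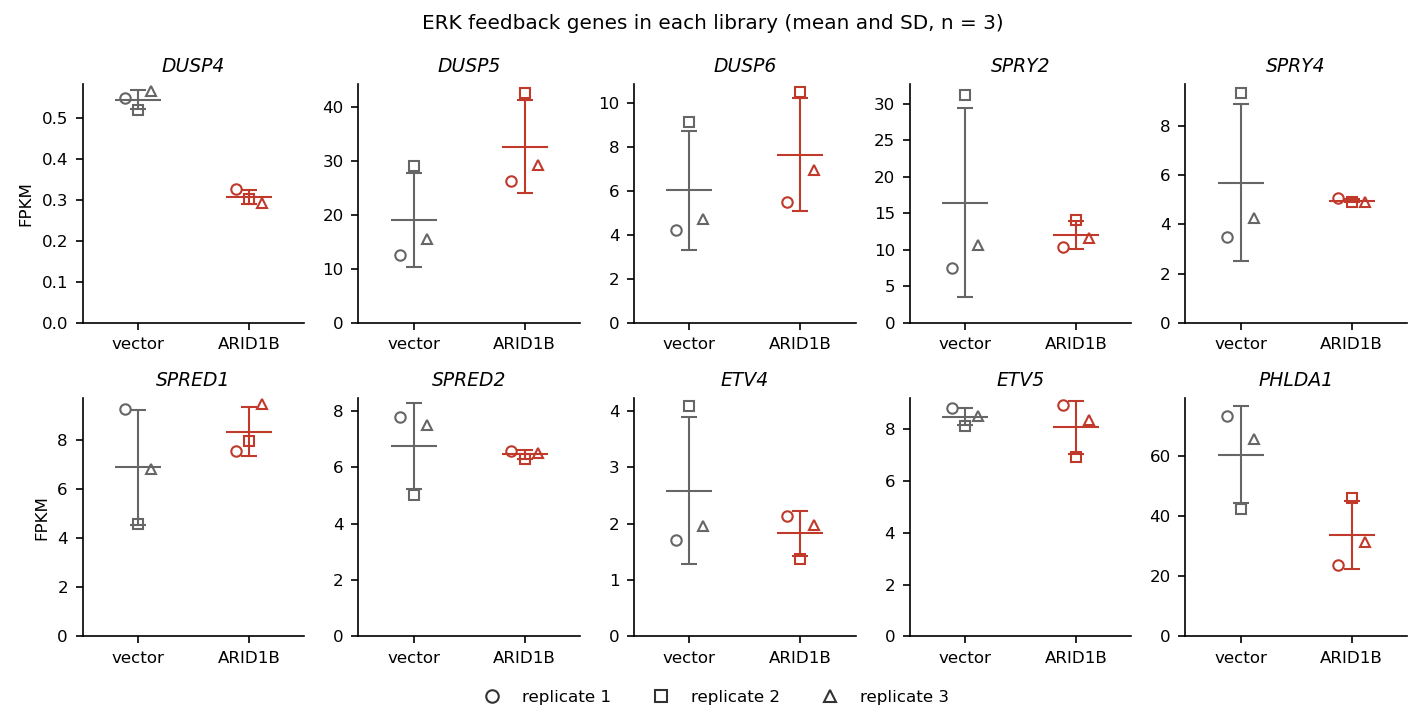
FPKM of each ERK feedback gene in the vector (gray) and ARID1B (red) libraries, 1 point per library with the shape giving the replicate number, and a bar for the mean with its SD (n = 3). DUSP4 is the gene whose groups do not overlap, at 0.519 to 0.565 FPKM with the vector and 0.292 to 0.327 FPKM with ARID1B, and vector replicate 2 sits apart from the other vector libraries for SPRY2, SPRY4 and ETV4.

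The phosphatases were examined first, as the members that act on ERK itself. DUSP5, a nuclear phosphatase specific for ERK, was at 12.7, 29.1 and 15.5 FPKM with the vector and at 26.3, 42.6 and 29.3 FPKM with ARID1B (here and below in the order of replicates 1, 2 and 3). Replicate 2 was the highest library of each group, and only that vector library reached into the range of the ARID1B libraries. The group means were 19.1 ± 8.78 and 32.7 ± 8.70 FPKM (SD, n = 3), and the log2 change of 0.80 (SE 0.33, 95% interval 0.0022 to 1.60) did not pass the threshold after adjustment over all genes (limma, adjusted p = 0.471). Without vector replicate 2, which leaves vector replicates 1 and 3 alone, it was 1.14 (adjusted p = 0.0597), not past the threshold of 0.05. As in any RNA from a whole culture, a change in how many cells express a gene and a change in RNA per cell cannot be told apart. DUSP6, the cytoplasmic ERK phosphatase, was at 4.22, 9.15 and 4.75 FPKM with the vector and at 5.51, 10.5 and 6.96 FPKM with ARID1B. Again replicate 2 was the highest in each group, and the groups overlapped. The log2 change was 0.32 (SE 0.32, adjusted p = 0.738), 0.62 without vector replicate 2 (adjusted p = 0.199) and 0.10 without ARID1B replicate 2 (adjusted p = 0.963).

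DUSP4, a nuclear phosphatase of ERK and other MAP kinases, was expressed at far lower levels and did not reach the minimum mean of 1 FPKM for the main test. Its level was 0.548, 0.519 and 0.565 FPKM in the vector libraries and 0.327, 0.302 and 0.292 FPKM in the ARID1B libraries, resting on 359, 382 and 291 recovered reads against 186, 182 and 218. Every ARID1B library lay below every vector library, and vector replicate 2 did not stand apart for this gene. The mean of 0.307 ± 0.0180 FPKM was 56.4% of the vector mean of 0.544 ± 0.0232 FPKM (SD, n = 3). An exact two-sided permutation test gave p = 0.1, the smallest that 3 against 3 libraries allow. It was run for DUSP4 because its groups did not overlap, which fixes that p, so it adds nothing to the separation. With no filter on low values the log2 change was -0.24 (SE 0.05, limma, adjusted p = 0.307), where the pseudocount of 1 compresses the change of so low a gene. In a fit down to a mean of 0.1 FPKM with a pseudocount of 0.1, chosen after the data were seen, it was -0.66 (SE 0.15, adjusted p = 0.313), and -0.69 without vector replicate 2 (adjusted p = 0.0795).

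The next members are the adaptor-like inhibitors. SPRY2, a Sprouty protein that dampens signals from growth factor receptors, was at 7.49, 31.2 and 10.6 FPKM with the vector and at 10.3, 14.1 and 11.6 FPKM with ARID1B. Vector replicate 2 was the highest of all 6 libraries, vector replicate 1 was below every ARID1B library and vector replicate 3 fell among them. The log2 change was -0.19 (SE 0.48, 95% interval -1.35 to 0.97, adjusted p = 0.891) and turned to 0.38 without that library (adjusted p = 0.274). SPRY4, a second Sprouty protein, was at 3.50, 9.34 and 4.25 FPKM with the vector and at 5.05, 4.92 and 4.92 FPKM with ARID1B. The ARID1B libraries were nearly equal and lay between vector replicate 2 and the other vector libraries. The log2 change of -0.07 (SE 0.31, adjusted p = 0.944) turned to 0.30 without vector replicate 2 (adjusted p = 0.129). The direction given for either Sprouty gene thus rested on 1 library.

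SPRED1, which keeps RAS inactive by bringing neurofibromin to the membrane, was at 9.27, 4.58 and 6.81 FPKM with the vector and at 7.57, 7.97 and 9.47 FPKM with ARID1B. Vector replicate 2 was the lowest library, opposite to the Sprouty genes, and the groups overlapped. The log2 change was 0.28 (SE 0.23, adjusted p = 0.702), and 0.05 without vector replicate 2 (95% interval -0.32 to 0.43). SPRED2, a relative of SPRED1 with the same domains, was at 7.79, 5.02 and 7.52 FPKM with the vector and at 6.60, 6.28 and 6.51 FPKM with ARID1B. The ARID1B libraries again kept to a narrow range, inside that of the vector libraries, with vector replicate 2 the lowest. The log2 change was -0.04 (SE 0.17, 95% interval -0.44 to 0.36, adjusted p = 0.939), and -0.21 without vector replicate 2 (adjusted p = 0.144).

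ETV4 and ETV5 are ETS transcription factors of the PEA3 group, which are induced by ERK and carry its signal on to further genes. ETV4 was at 1.71, 4.09 and 1.97 FPKM with the vector and at 2.15, 1.37 and 1.97 FPKM with ARID1B. Vector replicate 2 was the highest library and ARID1B replicate 2 the lowest, and the groups overlapped. The log2 change was -0.29 (SE 0.26, adjusted p = 0.718), and -0.01 without vector replicate 2. ETV5 was at 8.82, 8.13 and 8.51 FPKM with the vector and at 8.93, 6.93 and 8.34 FPKM with ARID1B. Of the tested members its vector libraries agreed most closely, and its change of -0.07 had the narrowest interval (SE 0.12, 95% interval -0.36 to 0.22, adjusted p = 0.833), with -0.10 without vector replicate 2.

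PHLDA1, a small protein with a pleckstrin homology domain that is induced by growth factors through ERK, had the highest mean level of the members and the largest negative change. Its level was 73.2, 42.3 and 65.6 FPKM with the vector and 23.6, 45.9 and 31.5 FPKM with ARID1B. The groups overlapped only between the replicates 2, of which the vector library was the lowest of its group and the ARID1B library the highest. The mean of 33.6 ± 11.3 FPKM was 55.7% of the vector mean of 60.3 ± 16.1 FPKM (SD, n = 3). The log2 change was -0.84 (SE 0.30, 95% interval -1.57 to -0.11, adjusted p = 0.420), -1.07 without vector replicate 2 (adjusted p = 0.0955) and -1.08 without ARID1B replicate 2 (adjusted p = 0.395). DUSP5 and PHLDA1 were thus the members with the largest differences in either direction, and neither passed the threshold with all libraries.

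Counted together, 0 of 9 tested members passed the threshold with a higher level, where 0.0288% of the 10416 genes tested did, and 0 of 9 with a lower level, where 0% did. At an unadjusted p under 0.05, limma gave 483 higher genes and 619 lower genes, among them 1 member higher (DUSP5) and 1 lower (PHLDA1). Voom on the recovered reads called 0 of 9 members, while it called ARID1B (adjusted p = 0.0398). Its share over all genes is not given here. Without vector replicate 2 the count of members was again 0 of 9 higher and 0 of 9 lower, with 1.2% and 1.91% of all genes called. The change was positive for 3 (33.3%, against 47.6% of all genes tested) and negative for 6 of the 9 tested members. Their median log2 change was -0.07, against -0.02 over all genes tested. Without vector replicate 2 the median turned to 0.05, against -0.01 over all genes. The levels of the groups did not overlap for 1 of 10 members with ARID1B lower (DUSP4), as for 10.8% of the 15925 genes that averaged 0.1 FPKM or more, and for 0 of 10 with ARID1B higher, as for 8.79% of those genes. Without vector replicate 2, 3 of 9 tested members lay apart and higher (DUSP5, DUSP6 and SPRY4, with 18.8% of all genes tested) and 2 of 9 lay apart and lower (SPRED2 and PHLDA1, with 23.9%). In the 5 remaining libraries DUSP5, DUSP6, SPRY2, SPRY4 and SPRED1 had positive values and SPRED2, ETV4, ETV5 and PHLDA1 negative ones, those of SPRED1 and ETV4 close to 0.

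**Figure D2:**
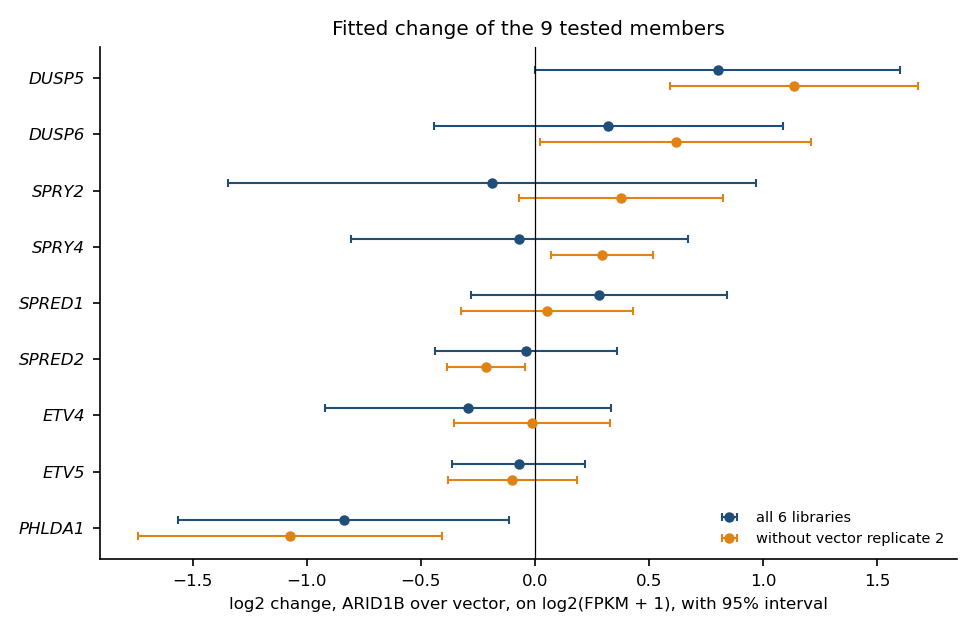
Log2 change of the 9 tested ERK feedback genes, ARID1B over vector on the log2(FPKM + 1) scale, with 95% intervals of the limma fit that are not adjusted for the number of genes (blue, all 6 libraries; orange, without vector replicate 2). SPRY2 and SPRY4 change sign between the fits, DUSP5 goes from 0.80 to 1.14 and PHLDA1 from -0.84 to -1.07.

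Much of the spread of the feedback genes lay within the vector group. Vector replicate 2 was at least 2-fold above vector replicate 1 in 5 of 9 tested members, against 9.45% of all genes tested: SPRY2 (4.17-fold), SPRY4 (2.67-fold), ETV4 (2.39-fold), DUSP5 (2.29-fold) and DUSP6 (2.17-fold). It was at least 2-fold below vector replicate 1 in 1 of 9, against 13.9% of all genes: SPRED1, at 0.493 of that library. SPRED2 and PHLDA1 were also lower there, at 0.645 and 0.578 of vector replicate 1. GC content and transcript length went along with the change between the groups, more so with vector replicate 2 included. Across the 10195 genes with a known GC content and length, the fitted change of ARID1B over vector had a Spearman correlation of -0.55 with GC content and 0.40 with transcript length, which became -0.27 and 0.02 without vector replicate 2 (genes are not independent replicates). After each library was corrected for both properties, vector replicate 2 was above vector replicate 1 by a difference on log2(FPKM + 1) of 1.76 for SPRY2, 1.40 for SPRY4, 1.10 for DUSP6, 0.81 for DUSP5 and 0.49 for ETV4. For SPRED1, PHLDA1 and SPRED2 the corrected differences were -0.25, -0.28 and -0.48, and for ETV5 -0.04. On this log2(FPKM + 1) scale the number of tested members at least 2-fold higher in that library was 3 of 9 before the correction (SPRY2, SPRY4 and DUSP5), against 5.5% of all genes, and 3 of 9 after it (SPRY2, SPRY4 and DUSP6), against 3.62% of all genes. The same corrected values gave a change of ARID1B over vector of 0.94 for DUSP5 (adjusted p = 0.392) and -1.01 for PHLDA1 (adjusted p = 0.303).

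Within the ARID1B group, replicate 2 was above replicate 1 by 1.94-fold for PHLDA1, 1.90-fold for DUSP6, 1.62-fold for DUSP5 and 1.36-fold for SPRY2, and stood at 0.640 of it for ETV4. DUSP5, DUSP6 and SPRY2 were therefore higher in replicate 2 of both groups, while ETV4 and PHLDA1 went opposite ways in the groups. 

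**Figure D3:**
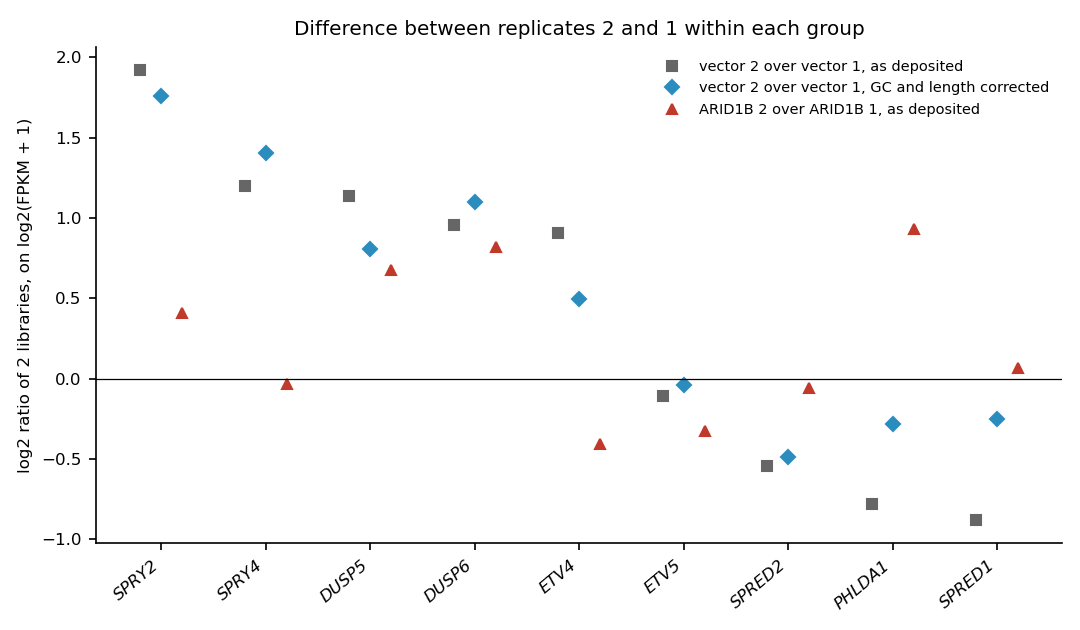
Log2 ratio of replicate 2 over replicate 1 on the log2(FPKM + 1) scale for the 9 tested ERK feedback genes, in the vector group as deposited (gray squares), in the vector group after the GC and length correction (blue diamonds) and in the ARID1B group as deposited (red triangles). The vector ratio of the 5 genes on the left is positive with and without the correction, and PHLDA1 is lower in vector replicate 2 but higher in ARID1B replicate 2.

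The rest of the pathway was then read from lists of its genes, each by its counts and median. Of the core cascade from receptor adaptors to ERK and its kinase targets, 22 of 23 genes were tested and 0 passed the threshold in either direction. The change was positive for 15 (68.2%, against 47.6% of all genes tested) and negative for 7. The median was 0.14, and 0.02 without vector replicate 2. The genes with the smallest p were PTPN11, which encodes the phosphatase SHP2 that passes receptor signals to RAS (log2 change 0.60, adjusted p = 0.509, and 0.30 without vector replicate 2), and MAP2K2, which encodes MEK2 (-0.47, adjusted p = 0.509, and -0.28 without that library). Of 16 other brakes on RAS and ERK, 13 were tested, 0 passed, 6 were positive and 7 negative, and the median was -0.01, and 0.05 without that library. The RAS GTPase activating proteins RASA2 (0.59, and 0.36 without it) and RASAL2 (0.31, and 0.22 without it) led this list, both at an adjusted p of 0.423 with all libraries. Of 7 other MAP kinase phosphatases 4 were tested and 0 passed, with 2 positive, 2 negative and a median of 0.03, which became -0.09 without it. DUSP1, an immediate early nuclear phosphatase, was at 26.1, 65.7 and 32.2 FPKM with the vector and at 39.5, 162 and 68.1 FPKM with ARID1B. Replicate 2 was highest in each group, as for DUSP5 and DUSP6. The log2 change of DUSP1 was 0.97 (adjusted p = 0.598), 1.36 without vector replicate 2 and 0.43 without ARID1B replicate 2. DUSP7, a cytoplasmic ERK phosphatase, had a change of -0.26 (adjusted p = 0.534), and of -0.25 without vector replicate 2. It was lower in every ARID1B library than in any vector library.

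Among the ETS and SRF factors that ERK phosphorylates or induces, 6 of 7 were tested, 0 passed, 3 were positive and 3 negative, and the median was 0.03, and -0.0041 without vector replicate 2. ETS1 was at 6.78, 5.92 and 6.59 FPKM with the vector and at 9.65, 9.33 and 9.52 FPKM with ARID1B. Its groups did not overlap, and its log2 change of 0.50 (SE 0.10, adjusted p = 0.285) missed the threshold with all libraries and passed it without vector replicate 2 (0.45, adjusted p = 0.0426). ELK3, a ternary complex factor, had a change of -0.13 (adjusted p = 0.712), and of -0.10 without that library. Of the relatives of PHLDA1, PHLDA2 was at 33.5, 94.8 and 44.9 FPKM with the vector and at 47.3, 25.6 and 40.5 FPKM with ARID1B. Its log2 change of -0.50 (adjusted p = 0.703) rested on vector replicate 2 and was -0.08 without it. PHLDA3, a p53 target that restrains AKT, had a change of -0.40 (adjusted p = 0.437), and of -0.26 without that library. It was lower in every ARID1B library than in any vector library.

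**Figure D4:**
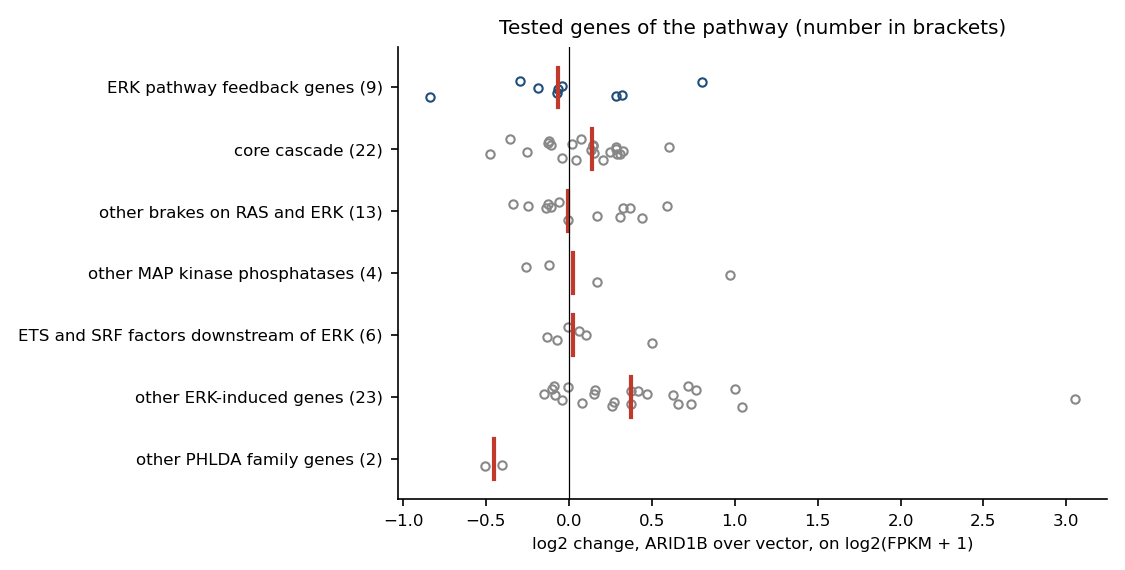
Log2 change, ARID1B over vector on the log2(FPKM + 1) scale, of each tested gene of the ERK feedback genes (blue) and of the other pathway lists (gray), with the red bar at the median of the list. The feedback genes spread from -0.84 (PHLDA1) to 0.80 (DUSP5) around a median of -0.07. The other ERK-induced genes have a median of 0.37, with FOS at 3.05 (1.74 without ARID1B replicate 2, not drawn).

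Of 26 other ERK-induced genes 23 were tested and 0 passed the threshold. The change was positive for 17 (73.9%, against 47.6% of all genes tested) and negative for 6. The median log2 change was 0.37, and 0.57 without vector replicate 2. Its value without ARID1B replicate 2 is not given here. EREG, a ligand of the EGF receptor family, was at 1.01, 1.34 and 0.818 FPKM with the vector and at 1.59, 1.88 and 2.06 FPKM with ARID1B. Its log2 change was 0.47 (adjusted p = 0.325), 0.57 without vector replicate 2 and 0.46 without ARID1B replicate 2. KLF6, a zinc finger factor, was at 12.3, 14.7 and 12.5 FPKM with the vector and at 16.2, 35.9 and 20.9 FPKM with ARID1B. Its log2 change was 0.77 (adjusted p = 0.423), 0.84 without vector replicate 2 and 0.46 without ARID1B replicate 2. Both genes were higher in every ARID1B library than in any vector library, as were 8.79% of genes averaging 0.1 FPKM or more, with 10.8% lower. In the other pathway lists ETS1, MKNK1, RASA1, RASA2, RASAL2 and DUSP8 lay apart and higher. MKNK2, RASA3, ERF, DUSP7 and PHLDA3 lay apart and lower. Of the 23 tested other ERK-induced genes, 10 (43.5%) were highest in ARID1B replicate 2, against 12.9% of all genes tested. Another 10 (43.5%) were highest in vector replicate 2, near the 39.5% of all genes. Among those highest in ARID1B replicate 2 were the immediate early genes FOS and EGR1, named here after their values were seen. FOS was at 0.302, 0.238 and 0.279 FPKM with the vector and at 0.118, 64.0 and 15.2 FPKM with ARID1B. EGR1 was at 46.9, 30.7 and 46.2 FPKM with the vector and at 21.8, 285 and 87.4 FPKM with ARID1B. In both genes ARID1B replicate 1 was the lowest library and ARID1B replicate 2 the highest, the library in which DUSP5 and DUSP6 were also highest.

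Without vector replicate 2, ETS1, EREG, HBEGF and UPP1 passed the threshold with higher levels and RPS6KA2 with a lower level. They were 4 and 1 of the 70 tested genes in these lists, beside 1.2% higher and 1.91% lower of all genes in that fit. Its vector group was replicates 1 and 3 alone, and the standard error of each of these genes fell, as from 0.54 to 0.21 for HBEGF. If vector replicate 3 is a mixture of replicates 1 and 2, these p-values are too small. HBEGF, another ligand of the EGF receptor, was at 1.40, 10.4 and 2.91 FPKM with the vector and at 6.60, 7.57 and 6.38 FPKM with ARID1B, so that the left-out library was the highest of all (log2 change 1.35 without it, adjusted p = 0.0426; 0.72 with it, adjusted p = 0.675). UPP1, uridine phosphorylase, was at 0.565, 1.90 and 0.778 FPKM with the vector and at 1.36, 1.51 and 1.34 FPKM with ARID1B. The left-out library was again the highest of all. UPP1 changed by 0.53 without that library (adjusted p = 0.0433) and by 0.26 with it (adjusted p = 0.719). RPS6KA2, which encodes an RSK kinase activated by ERK, was at 13.3, 2.35 and 11.6 FPKM with the vector and at 6.01, 7.83 and 6.44 FPKM with ARID1B (-0.80 without the library, adjusted p = 0.0431; -0.13 with it, adjusted p = 0.938). In the same fit the smooth muscle marker ACTG2 was higher with ARID1B (0.73, adjusted p = 0.0297), and its part in these values was not tested.

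**Figure D5:**
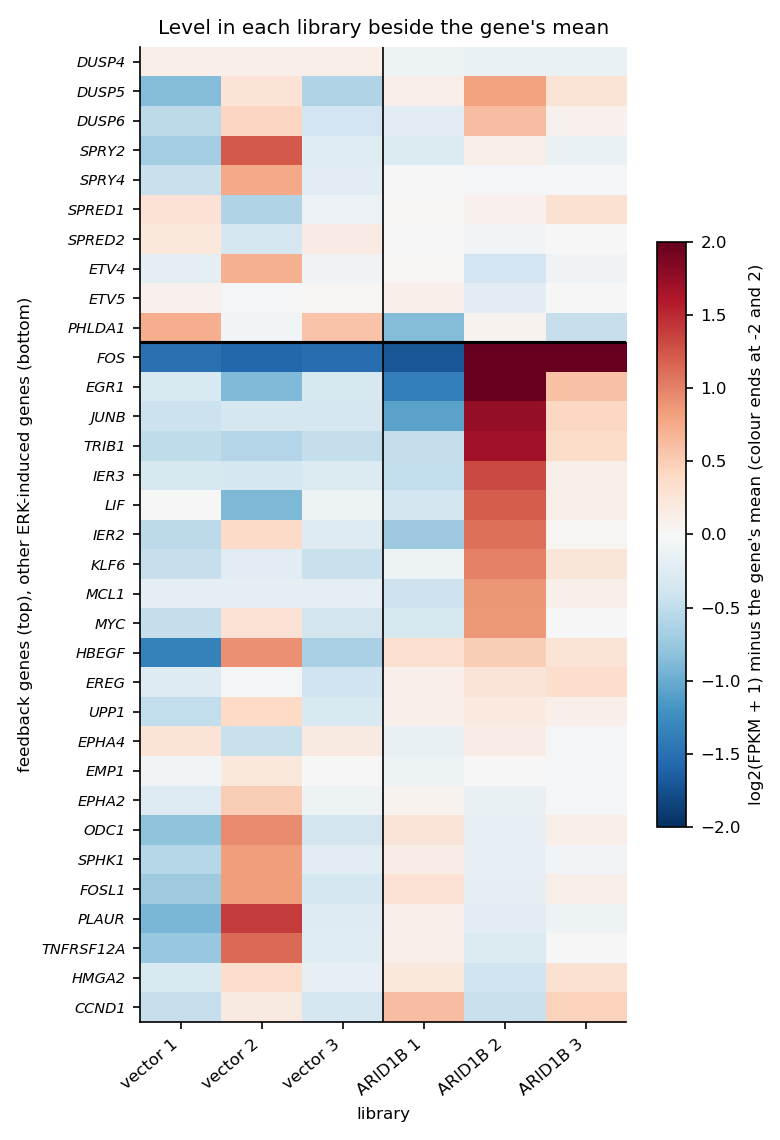
Log2(FPKM + 1) of each gene in each library minus the mean of the gene over the 6 libraries (red above, blue below, color ends at -2 and 2), for the 10 ERK feedback genes (top) and the 23 tested other ERK-induced genes (bottom, ordered by ARID1B replicate 2). ARID1B replicate 2 is the highest library of FOS, EGR1 and 8 other genes, and vector replicate 2 is the highest of SPRY2, SPRY4 and ETV4 among the feedback genes.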

How the data were processed

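RNA-seq of 3 vector and 3 ARID1B libraries of IMR90 cells was used. The authors deposited FPKM values for 57232 genes. Tools listed in the submitters' processing notes are DESeq2, HTSeq 0.5.3p9 and TopHat2 2.0.11, with the build hg19, and what each did is not given in the sources used here. Libraries were prepared with a stranded mRNA kit. The members and lists were chosen with earlier results of these data known. Named genes were the 10 members, ARID1B and, from each other list, genes past the threshold and the 2 with the smallest p.

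Genes averaging 1 FPKM or more (10416) were fitted by limma 3.58.1 in R 4.3.3, allowing a variance trend. The scale was log2(FPKM + 1), whose pseudocount of 1 understates changes of low genes. P-values were adjusted by Benjamini-Hochberg over all of them, with a threshold of 0.05. Standard errors and 95% intervals come from this fit. Reads were recovered from the FPKM steps (100% of tested genes whole in 6 libraries within 0.002 reads), and the fit and the recovery were tested on simulated data. Recovered reads are too few by any factor that all 6 values of a gene share. GC content and transcript length came from GENCODE v29 (97.9% of tested genes matched) and entered as natural splines with 5 degrees of freedom. Alternatives were median-ratio and quantile scaling, a pseudocount of 0.1, filters at 5 FPKM and at none, no variance trend, a replicate block, each library left out, both libraries numbered 3 left out, the GC and length correction, and voom. A fit down to a mean of 0.1 FPKM with a pseudocount of 0.1 was added for DUSP4 after seeing the data. The permutation test used Python 3.11.15 and scipy 1.17.1.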

Additional observations from a re-analysis of the deposited data

How the results depend on the processing

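No feedback gene passed the threshold in any of the alternatives it entered, which were 7 for DUSP4, 16 for ETV4 and 17 for each other member. The share of all genes called is given only for the main fit (0.0288% higher and 0% lower) and without vector replicate 2 (1.2% and 1.91%). At shares this low a count of 0 says little about the members, and for the other alternatives it cannot be set against a share. For members, 153 combinations of gene and alternative kept the direction and the side of the threshold, and 6 turned the direction. With a library left out, SPRY2 lay between -0.58 and 0.38, SPRY4 between -0.31 and 0.30, SPRED2 between -0.21 and 0.060 and ETV5 between -0.14 and 0.023. SPRED2 was at 0.033 without both libraries numbered 3. The median over the members lay between -0.078 and 0.054 with a library left out, the latter without vector replicate 2. Between 0 and 4 other pathway genes then passed the threshold higher and between 0 and 1 lower, the highest counts being those without vector replicate 2. ETS1 and EREG passed only in that fit. The call of ARID1B was lost in 9 of 17 alternatives, with adjusted p-values of up to 0.838. Its log2 change stayed between 3.14 and 3.88 throughout. In those 9 alternatives a count of 0 members says still less about the members. With the replicate block, 0 members passed, DUSP5 was at 0.80 and PHLDA1 at -0.84 (adjusted p = 0.811 for both). ARID1B did not pass with the block either (adjusted p = 0.105). Deviations from the group means of same-numbered libraries correlated at -0.46, -0.43 and -0.17. Because vector replicate 2 stood apart, these values cannot tell whether same-numbered libraries were handled together, and this was not tested. With 3 libraries a group, changes as large as those of DUSP5 and PHLDA1 did not clear the threshold, and the cause of the changed directions was not tested.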
